A study of Mus musculus with 6 samples.

Results

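Complement is a cascade of plasma and tissue proteins that tags cells and debris for removal, and in the retina it has been linked to the pruning of synapses and to the loss of ganglion cells under pressure. In its classical pathway, C1q binds a target and, with its proteases, cleaves C4 and C2. The resulting convertase cleaves C3, whose fragments coat the target and lead on to the membrane attack complex, and soluble and membrane-bound regulators stop the cascade on the body's own cells. The 9 genes described here cover these steps: C1qa, C1qb and C1qc (the 3 chains of C1q), C4b and C3 (the components that are cleaved and deposited), Serping1 (C1 inhibitor, which inactivates the C1 proteases), Cfi (factor I, the protease that degrades C3b and C4b), Cd55 (which speeds the decay of convertases) and Cd59a (which blocks the membrane attack complex). They were chosen by name, as 9 of 21938 protein-coding genes on chromosomes 1 to 19, X and Y, and peaks were assigned to them within 2.5 kb of a transcription start site (TSS, the promoter here) or within the gene body with 20 kb on either side (the locus).

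The measurement was ChIP-seq for histone H3 acetylated at lysine 27 (H3K27ac), a mark of active promoters and enhancers, in bulk retina of wild-type mice that were 3 months old at the first treatment. In 3 samples the eye had been held at an intraocular pressure of 30 mmHg for 1 h, 4 times, every 2 weeks (4xIOP), and in 3 samples it was an untreated contralateral eye (control). Tissue was taken on day 2 from the last of these elevations. A protocol shared by the labels also describes dasatinib or vehicle injections, which the labels of these 6 samples do not name. Each sample was represented by 1 list of called peaks, with 19913 to 36509 peaks in control and 16195 to 20804 in 4xIOP. The name carried inside the list was that of the other group in 4 of the 6 samples (control 1 and 2, 4xIOP 1 and 2) and that of the label in 2 (control 3 and 4xIOP 3). Groups were kept as labelled, and every direction below holds for the labels. Control 3 stood apart, covering 20.1 Mb against 6.66 to 10.8 Mb in the other lists. As markers of the tissue, the promoters of 10 to 12 of 14 photoreceptor genes had a peak in each list, whereas those of only 1 to 2 of 17 microglia and macrophage genes did (Irf8 in 4 lists, and the defining genes Cx3cr1, P2ry12, Tmem119 and Csf1r in none). In bulk tissue, fewer cells of a type and less acetylation per cell cannot be told apart, and a gene active only in a rare cell type may remain below what the caller detects.

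Most of the complement genes carried no called H3K27ac at their promoters. The promoters of 7 of the 9 genes (C1qa, C1qb, C1qc, C3, C4b, Cfi and Cd55) had no peak in any of the 6 lists, a state shared by 42.4% of all protein-coding genes. Cd59a had a promoter peak in all 6 lists, as had 39.5% of genes, and Serping1 had one in the 3 control lists and in no 4xIOP list, as had 0.36% of genes. Thus 2 of the 9 promoters were marked in each control list and 1 in each 4xIOP list. Among all protein-coding genes the marked share was 48.6%, 46.2% and 56.9% in control 1 to 3 and 47.4%, 45.7% and 44.6% in 4xIOP 1 to 3.

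**Figure D1:**
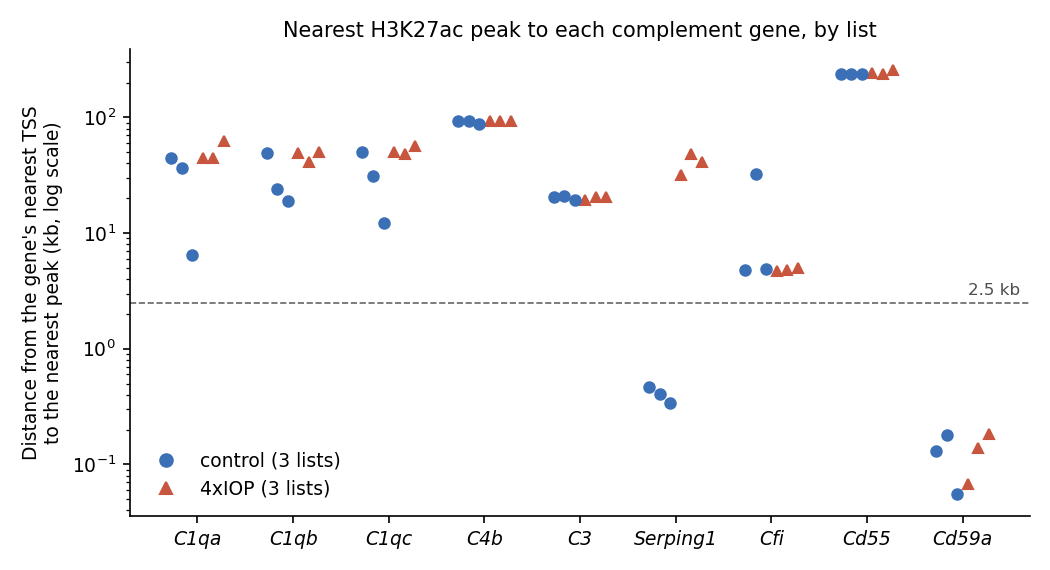
Distance in kb (log scale) from the nearest TSS of each of the 9 complement genes to the nearest peak, 1 point per list, with control as circles and 4xIOP as triangles. Cd59a lies under the 2.5 kb promoter limit (dashed) in all 6 lists and Serping1 in the 3 control lists, and the other 7 genes lie above it in every list.

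The sequences of the promoter with a peak in all lists and of unmarked ones are shown to let their CpG content be compared, since CpG-rich promoters are those most often acetylated. RefSeq promoter entries (GRCm38.p6) were at hand for 5 of the 9 genes (C1qb, C1qc, C3, Cd55 and Cd59a), and the 250 bases upstream of the RefSeq TSS were used. That TSS is the GENCODE one for C3, Cd55 and Cd59a, lies 13 bases upstream of it for C1qb and lies 151 bases downstream of it for C1qc, so that much of the C1qc window is inside the gene as used for peak distances. CpG dinucleotides are in capitals and each sequence is written 5′ to 3′ on the strand of the gene. The windows are chr2:104095551-104095800 (+) for Cd59a, chr4:136886201-136886450 (−) for C1qb, chr17:57228137-57228386 (−) for C3 and chr1:130462745-130462994 (−) for Cd55. The last line is the stretch of intron 1 of Cd59a that the promoter peaks of all 6 lists had in common, chr2:104095984-104096219 (+), which starts 183 bases downstream of the TSS.
Cd59a promoter: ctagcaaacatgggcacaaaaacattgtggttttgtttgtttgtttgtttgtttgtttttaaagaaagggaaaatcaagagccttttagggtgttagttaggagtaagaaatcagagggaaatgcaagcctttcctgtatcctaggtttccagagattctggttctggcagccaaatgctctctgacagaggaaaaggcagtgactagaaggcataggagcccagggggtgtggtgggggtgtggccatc
C1qb promoter: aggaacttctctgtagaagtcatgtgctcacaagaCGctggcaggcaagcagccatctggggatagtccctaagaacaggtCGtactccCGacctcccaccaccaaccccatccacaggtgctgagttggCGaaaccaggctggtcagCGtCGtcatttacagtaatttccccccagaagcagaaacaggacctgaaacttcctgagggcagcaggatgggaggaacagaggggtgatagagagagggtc
C3 promoter: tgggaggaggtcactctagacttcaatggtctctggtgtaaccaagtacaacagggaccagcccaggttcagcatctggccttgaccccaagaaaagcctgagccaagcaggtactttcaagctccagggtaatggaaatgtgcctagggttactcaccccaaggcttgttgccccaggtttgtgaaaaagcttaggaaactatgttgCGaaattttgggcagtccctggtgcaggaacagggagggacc
Cd55 promoter: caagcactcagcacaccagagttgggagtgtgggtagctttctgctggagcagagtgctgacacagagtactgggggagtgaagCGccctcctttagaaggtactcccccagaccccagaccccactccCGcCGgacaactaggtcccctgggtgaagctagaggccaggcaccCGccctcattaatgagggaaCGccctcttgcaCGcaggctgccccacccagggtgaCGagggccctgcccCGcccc
Cd59a shared peak: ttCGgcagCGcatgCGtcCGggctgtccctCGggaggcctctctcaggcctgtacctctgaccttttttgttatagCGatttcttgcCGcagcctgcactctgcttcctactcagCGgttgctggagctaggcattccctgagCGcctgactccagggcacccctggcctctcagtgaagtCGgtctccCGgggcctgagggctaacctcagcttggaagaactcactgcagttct

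All 5 upstream windows were poor in CpG. The ratio of observed to expected CpG was 0.00 in Cd59a, which had 0 CpG in 250 bases, 0.060 in C3, 0.112 in C1qc, 0.315 in C1qb and 0.315 in Cd55. The GC content ran from 44.8% in Cd59a to 64.0% in Cd55. Of the 7923 protein-coding genes whose upstream window had a ratio under 0.4, 78.8% were marked in no list and 8.51% in all 6. Of the 9293 genes with a ratio of 0.6 or more, 10.5% were marked in no list and 67.3% in all 6. Thus 4 of these 5 complement genes were in the most frequent state of CpG-poor promoters, and Cd59a was in a less frequent one. The bases shared by the Cd59a peaks differed from its upstream window, with 11 CpG in 236 bases, a ratio of 0.520 and a GC content of 60.2%.

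**Figure D2:**
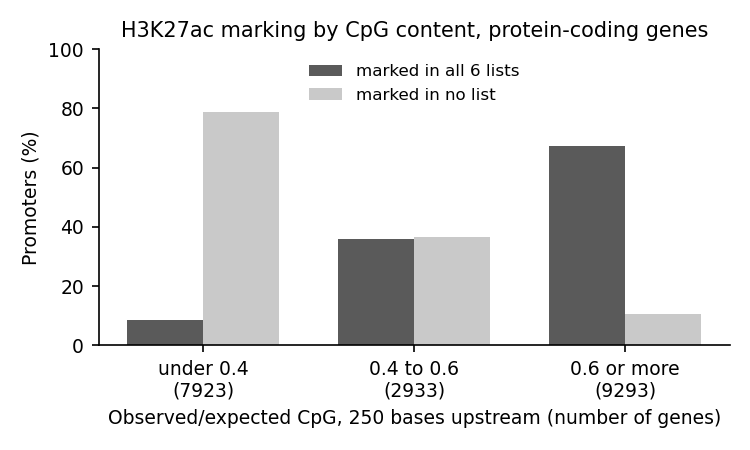
Percentage of protein-coding promoters marked in all 6 lists (dark) and in no list (light), for 3 classes of observed to expected CpG in the 250 bases upstream of the TSS, with the number of genes in parentheses. In the lowest class, which holds the 5 complement genes with an entry, 8.51% were marked in all lists and 78.8% in none.

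Few of the searched motifs occurred in these 5 windows. Each was searched on both strands, and a match is a description of letters only. The interferon response motif GAAANNGAA occurred once, in Cd59a, with its first base 187 bases upstream of the TSS (in 6.91% of 20150 protein-coding promoters). The PU.1 motif GAGGAAG occurred once, in C1qc (10.5% of promoters). The Sp motif GGGCGG occurred 2 times in Cd55 and once in C1qc (44.1% of promoters). No match was found in the 5 windows for the STAT motif TTCNNNGAA, which 6.60% of promoters held. The same was true of the AP-1 motif TGANTCA, found in 6.13% of promoters. The TATA box, searched as TATAAA, was also missing from the 5 windows and present in 11.2% of promoters. The CCAAT box had no match in them either and was present in 35.0%.

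Serping1 was the one gene of the 9 whose promoter was marked in every list of one labelled group and in no list of the other. It lies at chr2:84765387-84775444 on the minus strand, and its peaks spanned chr2:84774542-84775063, within the gene and 0.341 to 0.469 kb downstream of the nearest TSS at their closest edge. The summit was in an intron in control 2 and 3 and in an exon in control 1. The fold enrichment is the authors' ratio of the summit pile-up plus 1 to the background plus 1. It was 5.33 in control 1, 3.88 in control 2 and 5.48 in control 3. These ranked at the 76.4, 50.5 and 74.1 percentile of the peaks of their own lists. The peaks were small in absolute terms, with 16, 16 and 18 fragments at the summit, as recovered from fold and p-value, over a background equal to the genome mean of each list (2.19, 3.38 and 2.47 fragments). In 4xIOP no peak fell in the promoter or in the locus, and the nearest one was 31.7, 48.2 and 41.0 kb from the nearest TSS in 4xIOP 1 to 3. An uncalled promoter is not one without acetylation. The smallest summits called at the genome-mean background in these lists held 10, 9 and 10 fragments, so a signal below that could be present and not be listed.

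Of 21938 protein-coding genes, 79 (0.36%) had a promoter peak in each of the 3 control lists but in none of the 4xIOP lists, and 0 (0.0%) had the opposite pattern. With 1 list left out, the first count was 157 without control 1, 277 without control 2, 82 without control 3, and 175, 138 and 157 without 4xIOP 1 to 3. The second was 36 without control 3 and 0 to 3 without any other list. Serping1, 1 of 9 complement genes, was among the 79 and ranked 12 of them by mean fold percentile (67.0, against a median of 52.9). The nearest to it in fold percentile were Srgap1, a GTPase-activating protein of Slit-Robo signalling (mean absolute difference 3.19 percentile points over the control lists), and Slc35f1 (3.27 points). One of 11 housekeeping genes, Pgk1 of glycolysis, was also among the 79, with 33 to 61 summit fragments in control (named to complete the count, after its values were seen).

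The number of control lists with a Serping1 peak depended on which peaks were kept. When each list was limited to its 16195 top peaks, the number in the shortest one, only control 1 retained its peak, and the genes exclusive to control and to 4xIOP numbered 29 and 10. With peaks of −log10 q of at least 5, control 1 and control 3 retained it and control 2 did not. The peak was present in control 3, whose carried name is that of its label, and absent from 4xIOP 3, the other such list, a comparison of 1 list with 1 that has no replicate check. Control 1 and control 2, which also held the peak, carry the name of the pressure group. Endothelial marker promoters had a peak for 2, 0 and 2 of 9 genes in control 1 to 3 and for 0 of 9 in each 4xIOP list, with Pecam1, Cdh5 and Cldn5 unmarked in all lists. Irf8 was marked in the 3 control lists and in 4xIOP 3. Whether either moves with Serping1 through cell content was not tested.

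**Figure D3:**
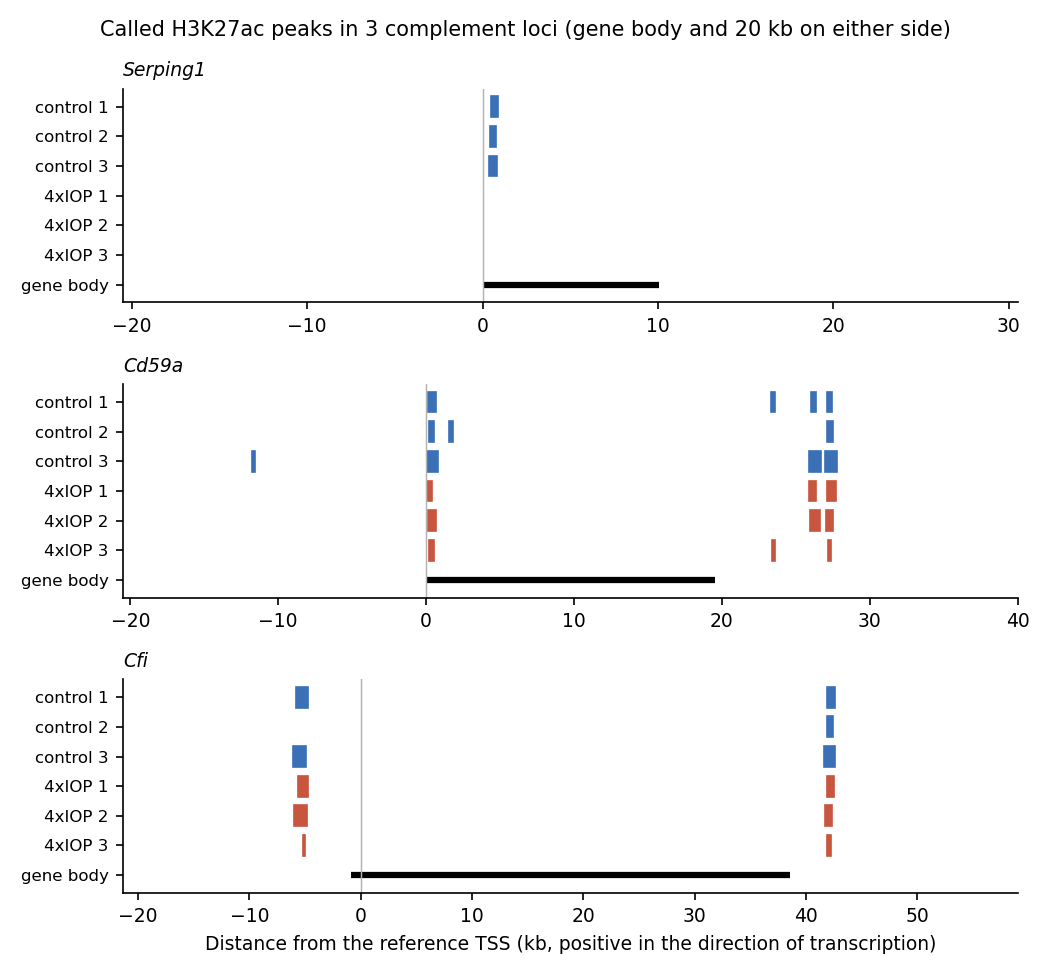
Called peaks of each list (rows, control in blue and 4xIOP in red) in the loci of Serping1, Cd59a and Cfi, by distance from the TSS in kb in the direction of transcription, with the gene body as a black bar. Serping1 has 1 peak in each control list and none in 4xIOP, Cd59a has a peak at its TSS in all lists, and the peaks of the Cfi locus lie on either side of the gene.

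Cd59a, at chr2:104095801-104115354 on the plus strand, was the complement gene with a promoter peak in every list, and its level did not separate the groups. With peaks of −log10 q of at least 5, it was marked in the 3 control lists and in 4xIOP 1 and 2, but not in 4xIOP 3. The peaks spanned chr2:104095856-104096604, with summits 245 to 437 bases downstream of the TSS, in intron 1. The fold was 4.31, 3.70 and 5.24 in control 1 to 3 and 5.07, 4.20 and 3.68 in 4xIOP 1 to 3. The means of 4.42 ± 0.774 and 4.32 ± 0.699 (SD, n = 3) differed by less than the spread (two-sided exact permutation p = 0.7, where 3 against 3 cannot give a p under 0.1). The summits held 35, 36 and 55 fragments in control and 41, 33 and 22 in 4xIOP (exact permutation p = 0.4). Within the lists they ranked at the 56.1, 44.6 and 71.7 percentile in control and at the 72.2, 56.1 and 29.7 percentile in 4xIOP (exact permutation p = 0.9). The highest and the lowest percentile were thus both in 4xIOP.

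Fitted together with all 10529 regions called in the 6 lists, the Cd59a promoter region had a difference in the normal score of its fold rank of 0.17 ± 0.32 (SE, 4xIOP minus control, 95% interval -0.51 to 0.86, adjusted p = 0.9999, limma). Of these regions, 0 (0.0%) were called in either direction, 334 had an unadjusted p under 0.05, and the interval at Cd59a still allows differences of close to 1 score unit. Control 2 had a second, weaker peak inside the gene, 1.74 kb downstream of the TSS (fold 2.59). Downstream of the gene, 27.4 kb from the TSS, all lists had a peak at the promoter of A930018P22Rik. Its fold was 2.95, 3.89 and 4.79 in control and 3.94, 3.53 and 2.70 in 4xIOP, and its score difference was -0.24 ± 0.39 (SE, adjusted p = 0.9999, limma).

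Cfi, at chr3:129835884-129875332 on the plus strand, had no peak at its own promoter in any list, although all 6 lists had peaks within its locus. These lay at the promoters of its neighbours. A region upstream of the gene, centred at -5.41 kb from the TSS, at the promoter of Gar1 (a component of H/ACA small nucleolar ribonucleoproteins), was called in 5 lists, all but control 2. Its fold was 7.56 in control 1, 8.09 in control 3 and 8.25, 6.32 and 3.88 in 4xIOP 1 to 3. A region 42.1 kb downstream of the TSS, at the promoter of the phospholipase gene Pla2g12a, was called in all 6 lists. There the fold was 6.70, 5.05 and 9.72 in control and 5.66, 6.59 and 4.63 in 4xIOP (exact permutation p = 0.4). Its score differed by -0.33 ± 0.36 (SE, adjusted p = 0.9999, limma).

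At the C1q genes, which lie next to each other on chromosome 4 and are expressed in the retina mainly by microglia, called acetylation was confined in these lists to isolated small peaks. The nearest peak to C1qa (chr4:136895917-136898803, minus strand) was 44.2 and 36.8 kb from its TSS in control 1 and 2, 6.47 kb in control 3, and 44.1, 44.1 and 62.6 kb in 4xIOP 1 to 3. The peak of control 3, chr4:136905274-136905463, was 190 bp long with 15 summit fragments and a fold of 4.61. It lies upstream of C1qa and, since the 3 genes are close together, within the loci of C1qb and C1qc too, so that the 3 genes share this 1 peak. C1qb (chr4:136880129-136886187) had 1 further peak in its locus, in control 2, 24.3 kb from the TSS and 195 bp long with 15 summit fragments and a fold of 3.49. C1qc (chr4:136889804-136893065) had no other peak. Both peaks were near the shortest length that their lists contain, 187 bp in control 3 and 195 bp in control 2.

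The components that are cleaved and deposited were unmarked as well. C3 (chr17:57203970-57228136, minus strand) had 1 region in its locus, upstream and centred at -19.3 kb from the TSS, at the promoters of Gpr108 and Trip10. It was called in control 3 (fold 4.35, 64 fragments) and in 4xIOP 1 (fold 3.48, 28 fragments). In the other 4 lists the nearest peak was 20.4 to 20.7 kb away, just outside the 20 kb limit. C4b (chr17:34728380-34743882) had no peak in its locus in any list, with the nearest 87.6 to 92.5 kb from its TSS. Its near-identical neighbour C4a makes reads at these genes uncertain, as reads that match both may have been dropped or split. Cd55 (chr1:130439027-130462744) had none either, and its nearest peak lay 238.7 to 254.3 kb away.

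Over the 9 loci there were 38 distinct peaks, namely 7, 6 and 9 in control 1 to 3 and 6, 5 and 5 in 4xIOP 1 to 3. Of these, 10 were at the promoters of Serping1 and Cd59a, 23 at the promoter of another gene and 5 at no promoter. They formed 12 regions, of which 3 were called in all 6 lists (at Cd59a, A930018P22Rik and Pla2g12a), 5 in 2 to 5 lists and 4 in 1 list. Peaks in the locus were found for 3, 4 and 7 of the 9 genes in control 1 to 3 and for 3, 2 and 2 in 4xIOP 1 to 3, and the count of 7 was that of control 3, the list with most peaks. Of all protein-coding genes, 63.1%, 60.6% and 70.0% had a peak in the locus in control 1 to 3 and 61.6%, 61.2% and 59.1% in 4xIOP 1 to 3.

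The acetylated length of a locus gave loci without a promoter peak a value too. At Serping1 it was 394, 318 and 425 bp in control 1 to 3 and 0 bp in each 4xIOP list. This locus entered the fit over all loci through its control lists alone, and the size of its fitted difference was set by the offset added before taking logs (-2.14 with 100 bp, -0.75 with 500 bp and -0.23 with 2000 bp), so that no test is given for it. At Cd59a it was 1518, 975 and 2477 bp in control and 1475, 1648 and 761 bp in 4xIOP, and at Cfi 1758, 504 and 2182 bp in control and 1497, 1785 and 511 bp in 4xIOP, so that the groups overlapped at both. Scaled for the total covered length of the lists, their differences on the log2(bp + 500) scale were 0.12 ± 0.19 (95% interval -0.30 to 0.54, adjusted p = 0.936, limma) and 0.22 ± 0.30 (95% interval -0.44 to 0.88, adjusted p = 0.925, limma), and both turned negative without the scaling (-0.24 and -0.13). Of all loci 0 (0.0%) were called in either direction (684 at an unadjusted p under 0.05).

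**Figure D4:**
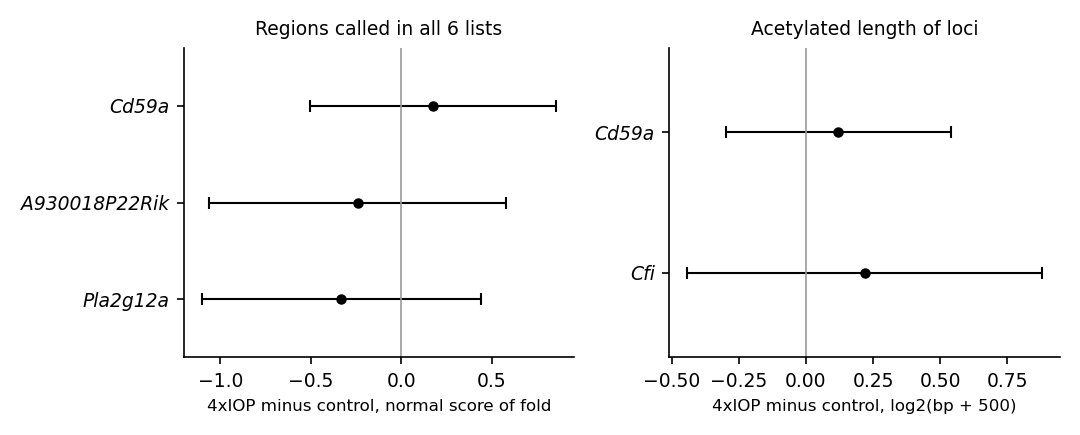
Differences between 4xIOP and control fitted by limma (points) with 95% intervals (bars), on the left for the 3 regions of the complement loci called in all lists and on the right for the acetylated length of the Cd59a and Cfi loci. All 5 intervals include 0, that of the Cd59a region running from -0.51 to 0.86.

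The rest of the complement system was examined in 45 further genes, of which 34 were marked in no list and 5 in all 6, against 42.4% and 39.5% of all protein-coding genes. The marked genes numbered 6, 6 and 10 in control 1 to 3 and 10, 7 and 7 in 4xIOP 1 to 3, and 0 of the 45 were exclusive to either group, where 0.36% (control) and 0.0% (4xIOP) of all genes were. No list had a peak at the promoters of the 3 alternative pathway components (Cfb, Cfd, Cfp) or of the 9 receptors (among them C3ar1, C5ar1 and Itgam). Of 13 other regulators, 4, 4 and 8 were marked in control and 7, 5 and 5 in 4xIOP, whereas of 13 other classical and lectin components 1 to 2 were marked and of 7 terminal components 1.

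Among the 5 of these 45 genes that were marked in every list, the highest fold percentiles were at Cr1l, the membrane regulator also known as Crry (83.1 to 98.2, mean 91.1), C8g, a chain of the membrane attack complex (72.1 to 93.1, mean 81.5), and Vtn, vitronectin, which binds the forming membrane attack complex (43.7 to 53.5, mean 49.2). The summit at C8g lay nearer to the TSS of Fbxw5 than to its own, and that at C2, another gene marked in all lists, nearer to the TSS of Zbtb12. Clu, clusterin, a soluble regulator, was the fifth gene marked in all lists, with 34, 44 and 43 summit fragments in control and 24, 22 and 28 in 4xIOP. The fragments of control and 4xIOP did not overlap at Clu and at C8g (43, 37 and 60 against 32, 30 and 27), with control higher, as at 27.4% of the 8669 protein-coding promoters marked in all lists. For the fold percentile, a rank within each list, they were separate, among the 5, at Clu (40.4, 65.6 and 69.7 in control, 37.9, 34.9 and 37.1 in 4xIOP), as at 11.4% of those promoters, while 0.438% had 4xIOP higher without overlap. Clu and C2 are named to complete the 5 genes, after their values were seen. Cd46, a membrane cofactor for factor I, was the gene nearest to the reverse of Serping1. It was marked in 4xIOP 1 to 3 with 13, 13 and 13 summit fragments and in control 3 with 14, and not in control 1 and 2. With control 3 left out, 36 of 21938 protein-coding genes, Cd46 among them, were marked in every 4xIOP list and in no control list. In that setting 82 genes had the opposite pattern. The fold at Cd46 was 4.32 in control 3 and 4.53, 4.25 and 3.93 in 4xIOP 1 to 3, so the value of control 3 lay within the range of 4xIOP.

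**Figure D5:**
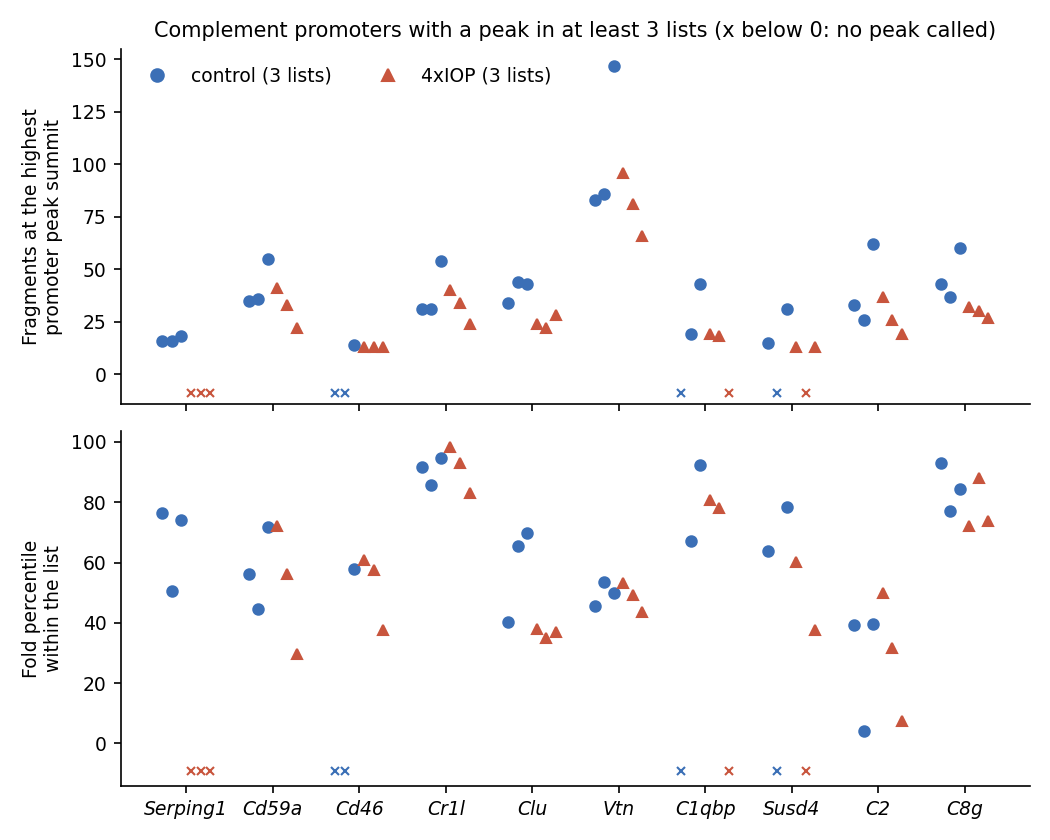
Summit fragments (top) and fold percentile within the list (bottom) of the highest promoter peak at the 10 complement genes marked in at least 3 lists, 1 point per list, with control as circles, 4xIOP as triangles and crosses below 0 for lists without a called peak, whose position carries no value. Serping1 has 16 to 18 fragments in control and no call in 4xIOP, Cd46 has 13 to 14 fragments where called, and at Cd59a the groups overlap.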

How the data were processed

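H3K27ac ChIP-seq peak lists of 3 control and 3 4xIOP retinas were used as deposited, 1 list per sample. Groups came from the labels, and the members and gene lists were chosen with earlier results of these data known. Nothing says that the 3 retinas of a group come from separate cages or batches, and intervals cover the spread between these lists. The deposited columns hold, per peak, the authors' fold enrichment ratio of pile-up over local background, their −log10 p-value and −log10 q-value, an integer score (not used) and the summit offset (unit: bases). The submitters' processing notes name mm10, MACS2, STAR 2.7.8a, HOMER, edgeR and bedtools 2.29.2 without roles, and the study's methods give 1 approximate read depth for all ChIP-seq libraries, so that the depth of each list was not used.

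Summit fragments and backgrounds were solved from fold and p under a Poisson model, and the deposited p was returned within 0.001 for 100.0% of peaks. The lowest background of a list was its genome mean, 87.4 to 173.4 fragments per 10 kb. Annotation was GENCODE vM21 on GRCm38. Overlap required 1 bp. Overlapping peaks of the 6 lists were merged into 39942 regions. limma 3.58.1 tested normal scores of fold ranks in regions called in all lists, and log2(scaled covered length + 500 bp) of loci covered in at least 3 lists, with Benjamini-Hochberg adjustment at 0.05 over all. Single values were compared by a two-sided exact permutation test. Named genes were the 9 members, complement genes marked in all lists of one group and at most 1 of the other, the 3 highest in fold percentile among those marked in all, the 2 nearest to Serping1, and genes whose TSS lies at a region of a locus. C4a had no protein-coding entry, which left 45 of 46 other complement genes. The functions were tested on simulated data. Same-numbered lists did not deviate together (correlations -0.02, -0.06 and -0.15), so the numbers were not treated as pairs. Alternatives covered list depth, q, promoter and locus width, scaling, offset, fragment-length class, a replicate block and leaving out each list.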

Additional observations from a re-analysis of the deposited data

How the results depend on the processing

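The settings tried could remove peaks but not add any to a list. Serping1 was marked in fewer control lists when all were limited to an equal number of peaks (1 of 3) or to −log10 q of at least 5 (2 of 3), and the difference in marked members moved from -1 to -0.33 with the former. The genes exclusive to control and to 4xIOP numbered 79 and 0, and 29 and 10 with that limit. The latter count was 1 with the summit required in the promoter and 4 over all annotated genes. With only the 2 lists named as labelled, chosen after seeing the data, they were 2751 and 51, a comparison of 1 list with 1. With each list left out in turn they ranged from 82 to 277 and from 0 to 36, the 36 being without control 3.

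Of the tests across all loci, 1 locus was called lower with −log10 q of at least 5, and 1 higher and 54 lower with an offset of 100 bp. No region was called in any setting. With each list left out, the Cd59a region ranged from -0.06 (without 4xIOP 1, a change of sign) to 0.37, that at A930018P22Rik from -0.56 to 0.14 (without 4xIOP 3, a change of sign), and the Cfi locus from -0.054 to 0.48. The region at Pla2g12a ranged from -0.62 to -0.045 and the Cd59a locus from 0.044 to 0.23, both without a change of sign. The Cd59a locus changed sign without scaling (-0.24), with −log10 q of at least 5 (-0.35) and with a flank of 5 kb (-0.055). The Cfi locus did so without scaling (-0.13), with the fragment-length class as a term (-0.029) and without control 2 (-0.054). None of these passed the test, and the cause was not tested. Without scaling the median locus moved from 0.05 to -0.30. The Serping1 locus could not be fitted with an equal number of peaks, with −log10 q of at least 5 or without a control list, since fewer than 3 lists then covered it. The replicate block changed no call, with 0 regions and 0 loci called and a member difference of -1. In all, 133 recomputed values were classed as the same, 20 moved, 8 changed sign and 1 became stronger. A fitted difference was the same when its sign and its call were unchanged. A count was the same when it was equal or close, and the member difference when it was equal. Many of the 133 are counts of called regions or loci that were 0 in both settings and have no direction. Peaks of 13 to 18 fragments lie near the smallest summits called at the genome-mean background (9 to 12 fragments), and 4 of the 6 lists carry the other group's name, on which every direction depends. Grouped by the carried name, lists of both groups hold the Serping1 peak (control 1 and 2 on one side, control 3 on the other). The counts of exclusive genes and the fits were not recomputed in that grouping.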
